A study of Mus musculus with 4 samples.

Results

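Transcript levels of 9 genes of inhibitory transmission were read in brain tissue of the parasubthalamic nucleus, a group of neurons in the caudal part of the lateral hypothalamic area, medial to the subthalamic nucleus. They were chosen by name: the GABA-synthesising enzymes Gad1 and Gad2, the breakdown enzyme Abat, the vesicular transporter Slc32a1, the membrane transporters Slc6a11, Slc6a5 and Slc6a9, and the chloride cotransporters Slc12a5 and Slc12a2. All 9 were found among the 25044 entries of the tables, and all 9 were among the 17630 entries with a mean of 0.1 FPKM or more that were tested. FPKM are fragments scaled to transcript length and library size, so levels can be compared between genes. The unit was inferred, since neither labels nor headers name it, and comparisons between genes depend on that reading.

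The series holds 4 RNA-seq libraries from untreated, naive C57BL/6 mice, an inbred strain, called replicates 1 to 4. They form 1 group, with no stressed animals, no transgene and no treatment, and age and sex are not stated. The comparisons are therefore between genes within libraries and between the libraries. No label says that the replicates are separate animals or separate pools, so each p-value reflects only how far these samples spread, which may be technical.

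GABA is made from glutamate by glutamate decarboxylase, loaded into vesicles by the transporter encoded by Slc32a1, and cleared from the synapse into neurons and astrocytes, where GABA transaminase breaks it down. Glycine shares the vesicular transporter but has membrane transporters of its own. Whether these transmitters inhibit a neuron depends on its internal chloride, which the exporter KCC2 (Slc12a5) lowers and the importer NKCC1 (Slc12a2) raises. The lateral hypothalamus and its neighbours hold GABA neurons beside glutamate neurons, and glycine neurons lie mainly in the hindbrain and spinal cord.

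Totals per library lay between 428612 and 442836 FPKM. All 6 neuronal markers, all 8 astrocyte markers and all 6 oligodendrocyte markers fixed as a check were above 0 in every library. Markers of neighbouring regions differed between the libraries. In replicate 1 the 8 Hox genes used as markers of spinal cord and caudal hindbrain summed to 19.6 FPKM, and all 8 were listed at 0 in the other libraries. In replicate 2 the 6 midbrain dopamine markers summed to 696 FPKM against 318 to 363 elsewhere, and the 4 medial hypothalamic markers to 173 against 8.71 to 28.8. In replicate 3 the 5 thalamic markers summed to 264 FPKM against 17.6 to 44.1, and in replicate 4 the choroid plexus gene Ttr was at 49.7 FPKM against 0.587 to 1.99. Oligodendrocyte markers summed to 5649 FPKM in replicate 1, below the 6530 to 8196 of the others, with 6 of 6 lowest there, against 28.5% of all entries tested.

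By mean level, Slc6a11 stood at the top, followed by Abat and Gad1 close together, then Slc12a5. Slc32a1, Slc6a9 and Gad2 formed a level trio, Slc12a2 lay below them, and Slc6a5 was at the bottom. Slc6a11 was first, Slc12a2 next to last and Slc6a5 last in all 4 libraries, while Abat and Gad1, and the members of the trio, changed places between libraries. By mean level 7 of the 9 stood between percentiles 92.7 and 98.7 of the 17630 entries tested, Slc12a2 at 82.3 and Slc6a5 at 29.6. These are levels of bulk tissue, in which fewer cells of a type and less RNA per cell cannot be told apart.

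**Figure D1:**
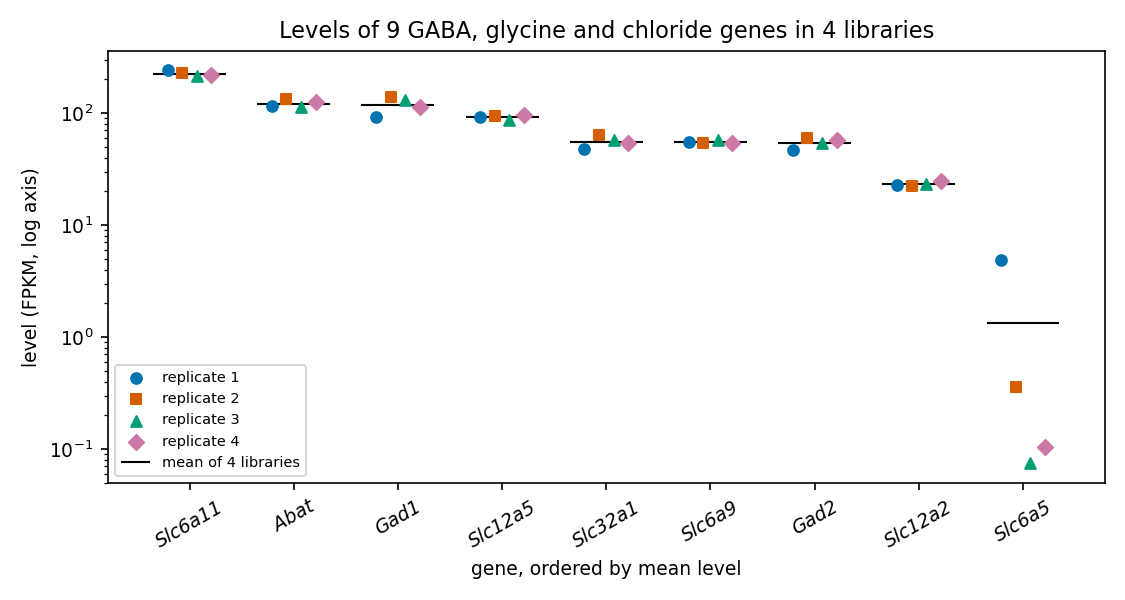
FPKM on a log axis for the 9 genes, ordered by mean level. Each symbol is 1 of the 4 libraries and the black line is their mean. Of the 8 steps between neighbours, 4 have overlapping ranges (Abat and Gad1, Gad1 and Slc12a5, Slc32a1 and Slc6a9, Slc6a9 and Gad2); Slc6a5 spreads widest, with replicate 1 at 4.83 FPKM and the others at 0.0745 to 0.361.

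Synthesis came first. Gad1 (ENSMUSG00000070880, GRCm38 chromosome 2, 70553072 to 70602014) encodes the decarboxylase isoform found throughout GABA neurons, which supplies most of the brain's GABA. Its level was 92.3, 138, 132 and 113 FPKM in replicates 1 to 4. Replicate 1 was the lowest and replicate 2 the highest, a range of 1.49-fold. Gad2 (ENSMUSG00000026787, chromosome 2, 22622205 to 22693874) encodes the isoform concentrated at nerve terminals. It was at 46.6, 59.7, 54.2 and 57.6 FPKM in replicates 1 to 4, again with replicate 1 lowest and replicate 2 highest, and its values do not overlap those of Gad1.

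Gad1 was higher than Gad2 in 4 of 4 libraries. The ratio of Gad1 to Gad2 was 1.98, 2.31, 2.43 and 1.96 in replicates 1 to 4, with a mean of 2.17 ± 0.236 (SD, n = 4). The log2 difference was 1.11 (SE 0.09, limma adjusted p = 9.16e-06). Of all genes tested 5.94% were higher than Gad2 in the same fit, so to stand above it is uncommon among genes at large. On values multiplied back by transcript length (longest annotated form), which rank genes roughly by fragments, the difference was 0.44 and still passed (limma adjusted p = 0.00218). The longest Gad1 form, of 3601 bases, has 5 exons against 16 for Gad2, and whether it stands for most Gad1 transcripts was not tested.

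Slc32a1 (ENSMUSG00000037771, chromosome 2, 158610767 to 158615748) encodes the vesicular transporter that fills synaptic vesicles with GABA or glycine. It was at 47.5, 63.4, 57.6 and 54.3 FPKM in replicates 1 to 4, lowest in replicate 1 and highest in replicate 2, as both decarboxylase genes were. Its range overlaps that of Gad2 widely. The log2 difference of Slc32a1 over Gad2 was 0.03 (95% interval -0.16 to 0.22, limma adjusted p = 0.726), and Slc32a1 was higher in 3 of 4 libraries. Multiplied by transcript length, the difference turned to -1.01 and passed. Gad1 was 2.11-fold higher than Slc32a1 (log2 difference 1.08, SE 0.09, limma adjusted p = 1.14e-05), in 4 of 4 libraries.

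Gad1, Gad2 and Slc32a1 were each lowest in replicate 1 and highest in replicate 2. Between the remaining libraries they parted: Gad1 and Slc32a1 were higher in replicate 3 than in replicate 4, and Gad2 was lower. Relative to the mean of the other libraries, replicate 1 was lower by a log2 difference of -0.46 for Gad1, -0.29 for Gad2 and -0.29 for Slc32a1. That pattern, lowest in replicate 1 and highest in replicate 2, was held by these 3 of the 9 genes and by 9.88% of all entries tested. Among all entries 8.90% were at least as low in replicate 1 as Gad1, 14.9% as Gad2 and 14.8% as Slc32a1, so none of the shifts is rare. The 4 markers of zona incerta and reticular thalamus, GABA-rich neighbours, summed to 75.4, 118, 97.9 and 84.7 FPKM in replicates 1 to 4, also lowest in replicate 1 and highest in replicate 2. Most of each sum was Pvalb, at 51.6, 77.2, 80.8 and 56.0 FPKM in replicates 1 to 4. Of the 4, only Six3 had that order itself. Pvalb was highest in replicate 3, and Ecel1 and Isl1 were lowest in replicate 3. The 4 microglia markers were all highest in replicate 2, and 3 of them lowest in replicate 1, with sums of 56.5 and 72.1 FPKM. The part of these cells and regions in the GABA genes' profile was not tested. The main vesicular glutamate transporter gene here, Slc17a6, went the other way between the same libraries, at 90.3 FPKM in replicate 1 and 65.3 in replicate 2. The other vesicular glutamate transporter genes, Slc17a7 and Slc17a8, were at 0.830 and 0.434 FPKM in replicate 1 and higher, at 3.41 and 2.19 FPKM, in replicate 2. The ratio of Slc32a1 to Slc17a6 was 0.526, 0.971, 0.696 and 0.665 in replicates 1 to 4.

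**Figure D2:**
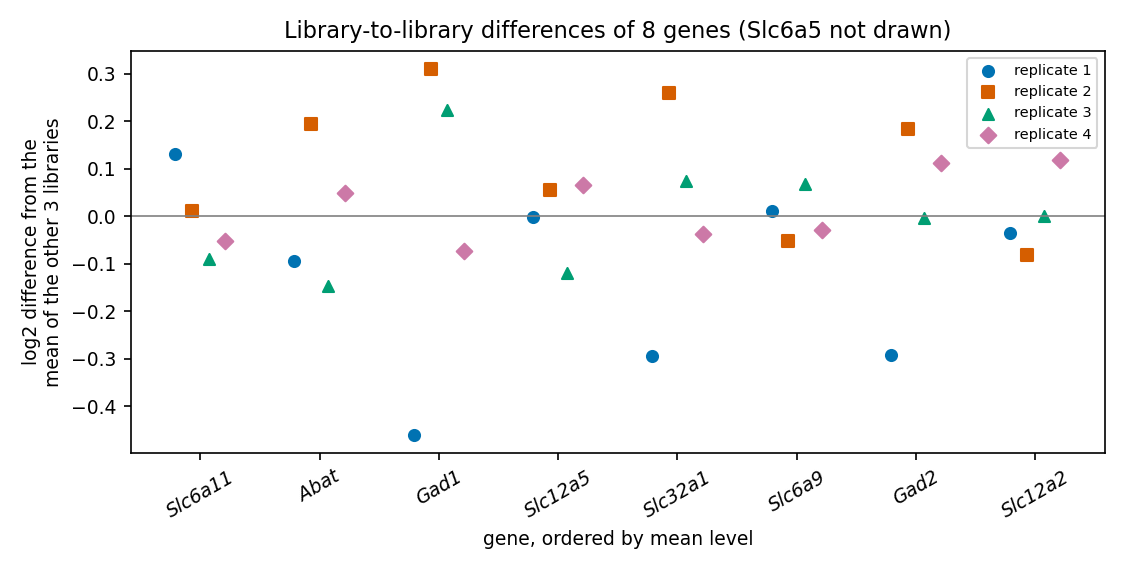
Log2 difference of each library from the mean of the other 3 libraries for 8 of the genes, with Slc6a5 left out because its values exceed the axis. Replicate 1 is lowest and replicate 2 highest for Gad1, Slc32a1 and Gad2, while Slc6a9, Slc12a5 and Slc12a2 stay between -0.12 and 0.12.

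The start sites of these 3 genes are shown because the genes had the same lowest and highest library and lie on the same chromosome. Each line gives 250 bases before to 50 bases after the RefSeq start (build GRCm38.p6, plus strand), 5′ to 3′, with every CG dinucleotide in capitals: chr2:70561879-70562178 for Gad1, chr2:22622077-22622376 for Gad2 and chr2:158610508-158610807 for Slc32a1.
Gad1: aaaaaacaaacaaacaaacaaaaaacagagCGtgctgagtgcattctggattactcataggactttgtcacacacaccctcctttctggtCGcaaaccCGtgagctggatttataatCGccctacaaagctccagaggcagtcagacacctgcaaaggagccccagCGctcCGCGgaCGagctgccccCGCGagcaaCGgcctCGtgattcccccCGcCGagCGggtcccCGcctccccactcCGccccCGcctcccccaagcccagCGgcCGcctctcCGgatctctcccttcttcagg
Gad2: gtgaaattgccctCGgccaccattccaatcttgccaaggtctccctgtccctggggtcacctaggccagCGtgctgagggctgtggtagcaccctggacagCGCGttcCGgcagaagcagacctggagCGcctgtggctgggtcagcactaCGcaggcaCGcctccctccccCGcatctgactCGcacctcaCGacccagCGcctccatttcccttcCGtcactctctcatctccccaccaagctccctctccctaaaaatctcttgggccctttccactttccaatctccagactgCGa
Slc32a1: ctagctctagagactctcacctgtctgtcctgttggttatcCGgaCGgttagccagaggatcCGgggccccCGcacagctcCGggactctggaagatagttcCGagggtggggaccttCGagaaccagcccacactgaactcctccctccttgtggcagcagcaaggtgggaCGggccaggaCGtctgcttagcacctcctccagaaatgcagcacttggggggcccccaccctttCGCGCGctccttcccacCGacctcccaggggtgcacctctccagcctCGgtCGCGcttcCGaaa
The windows are rich in G and C, at 60% for Gad1, 61.3% for Gad2 and 63.3% for Slc32a1, against a median of 52.7% over 32851 mouse promoter windows of the same length. They hold 21, 14 and 17 CG dinucleotides in the same order, against a median of 7. The GC box GGGCGG, searched on both strands, occurs 1 time in the Gad1 window and not in the other 2, and in 35.7% of all windows. The TATA box TATAAA, on either strand, occurs 1 time in the Gad1 window only, and in 13.6% of all windows. The CCAAT box, on either strand, occurs 2 times in the Gad2 window only, and in 37.4% of all windows. None of these motifs overlaps another in sequence, and none occurs in all 3 windows. A match describes letters only. The Gad1 window lies downstream of the gene start given above, 70553072, whereas the windows of Gad2 and Slc32a1 span theirs.

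The antisense genes Gad1os and Gm14205 are annotated on the opposite strand of Gad1 and Slc32a1, and no value of either was used here. The use of strand is not given in the sources used here, so reads from either antisense gene cannot be told apart from those of its partner.

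Uptake of GABA was represented by the most abundant of the 9 transcripts, while those of Abat and Gad1 did not pass as different in level. Slc6a11 (ENSMUSG00000030307, chromosome 6, 114131241 to 114249952) encodes GAT3, a GABA transporter found mainly on astrocytes. It was at 240.3, 226, 214 and 219 FPKM in replicates 1 to 4, highest in replicate 1, and it ranked 231 among all 17630 entries by mean. Its libraries differed by no more than 1.12-fold, and its lowest value lay above the highest value of every other member. Abat (ENSMUSG00000057880, chromosome 16, 8513429 to 8621568) encodes the mitochondrial GABA transaminase, which is present in neurons and in astrocytes. It was at 115, 134, 112 and 124 FPKM in replicates 1 to 4, highest in replicate 2.

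Slc6a11 was 1.85-fold higher than Abat (log2 difference 0.89, SE 0.07, limma adjusted p = 7.05e-06) and 1.92-fold higher than Gad1 (log2 difference 0.94, SE 0.16, limma adjusted p = 0.000858), each in 4 of 4 libraries. Of all genes tested 2.3% were higher than Abat and 2.04% higher than Gad1 in the same fits. The ratio of Slc6a11 to the enzyme gene Aldoc, 1 of the 8 astrocyte markers, stayed between 0.403 and 0.436. Slc6a11 was not set against the other astrocyte markers, which varied in their order of libraries. Of the 8, 4 were highest in replicate 1, 3 in replicate 2 and 1 in replicate 3. Slc1a3 was at 78.3 FPKM in replicate 1 and 55.7 in replicate 3, and Aldh1l1 was highest in replicate 3. Abat and Gad1 did not pass as different, at a log2 difference of 0.05 (95% interval -0.30 to 0.40, limma adjusted p = 0.755). Abat was higher in replicates 1 and 4 and lower in replicates 2 and 3. On values multiplied by transcript length, Abat over Gad1 passed at 0.41 (limma adjusted p = 0.0266). The ratio of Gad1 to Abat ran from 0.799 in replicate 1 to 1.17 in replicate 3, so synthesis and breakdown transcripts changed places between libraries.

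The membrane transporters of glycine stood far apart in level. Slc6a9 (ENSMUSG00000028542, chromosome 4, 117834506 to 117875198) encodes GlyT1, which clears glycine into glia and also sets glycine near glutamate synapses. It was at 55.6, 53.8, 57.3 and 54.5 FPKM in replicates 1 to 4, the steadiest of the 9 genes with an SD of 2.75% of its mean (n = 4). B4galt2 and Ccdc24, which overlap it on the opposite strand, were at 16.2 to 18.8 FPKM and at no more than 1.48 FPKM. Slc6a5 (ENSMUSG00000039728, chromosome 7, 49910146 to 49963856) encodes GlyT2, which returns glycine to the terminals of glycine neurons and marks those cells. It was at 4.83, 0.361, 0.0745 and 0.104 FPKM in replicates 1 to 4, high in replicate 1 alone.

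Slc6a9 was higher than Slc6a5 in 4 of 4 libraries, but the size of the gap rested on the library. The ratio was 11.5, 149, 769 and 522 in replicates 1 to 4. The log2 difference was 6.70 (SE 1.24, limma adjusted p = 0.0157), and 43.1% of all genes tested were higher than Slc6a5 in that fit. Without replicate 1 the difference was 7.76 (limma adjusted p = 0.000170). It did not pass without replicate 2 (6.64), replicate 3 (6.14) or replicate 4 (6.24), with limma adjusted p of 0.188, 0.150 and 0.171.

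**Figure D3:**
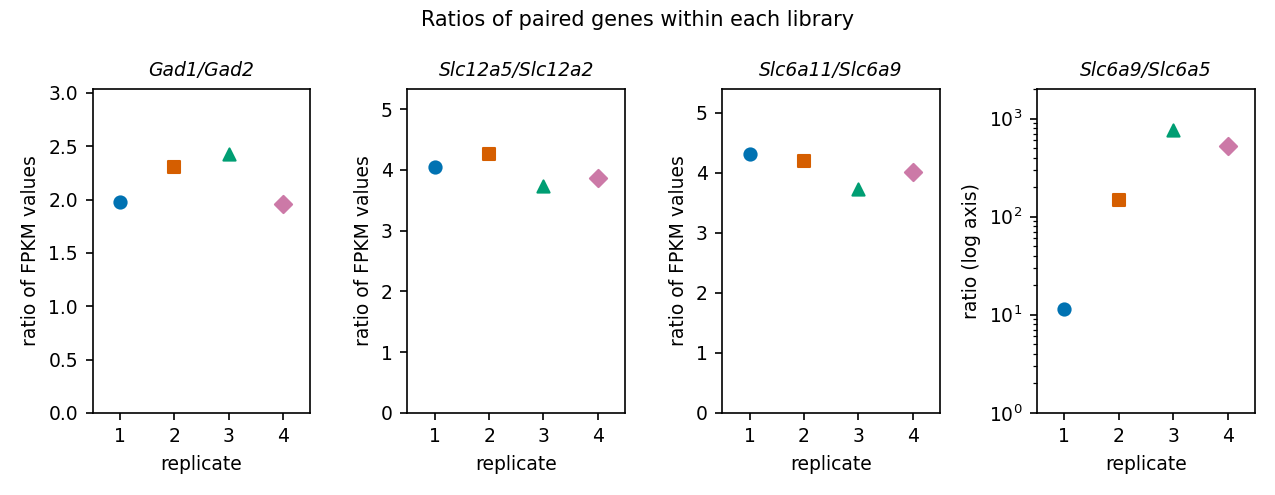
Ratios of FPKM values within each of the 4 libraries for Gad1 to Gad2, Slc12a5 to Slc12a2, Slc6a11 to Slc6a9 (axes from 0) and Slc6a9 to Slc6a5 (log axis). The first 3 ratios stay within 1.24-fold, 1.14-fold and 1.16-fold between libraries, while the last runs from 11.5 to 769.

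Slc6a5 was the member that set replicate 1 apart. Its log2 value there was 4.28 above the mean of the other libraries, and its mean without replicate 1 was 0.180 FPKM against 1.34 with it. The Hox genes given above were above 0 in the same library alone, summing to 19.6 FPKM. Lbx1, a transcription factor of dorsal spinal and hindbrain neurons, was at 0.188 FPKM in replicate 1 and listed at 0 in the others, and Pax2, which is used by inhibitory neurons of the same regions, was at 0.167 against 0.0291 to 0.0813 FPKM. The part of such tissue in the Slc6a5 value was not tested. The 3 genes with the profile nearest to Slc6a5 over the 4 libraries, by Euclidean distance of centred log2 levels, were Uts2b at 0.90, Hoxd8 at 1.06 and Hoxb5 at 1.06 log2 units. Uts2b was at 1.24 and 0.170 FPKM in replicates 1 and 2, Hoxd8 at 1.88 and Hoxb5 at 1.90 FPKM in replicate 1, and each was listed at 0 in the remaining libraries.

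The chloride cotransporters were both steady. Slc12a5 (ENSMUSG00000017740, chromosome 2, 164960802 to 164999731), the KCC2 gene, is expressed by mature neurons and exports chloride with potassium. It was at 92.0, 94.7, 86.5 and 95.3 FPKM in replicates 1 to 4, lowest in replicate 3. Slc12a2 (ENSMUSG00000024597, chromosome 18, 57878678 to 57946821), the NKCC1 gene, imports chloride with sodium and potassium and is also made by glia, blood vessels and choroid plexus. It was at 22.7, 22.2, 23.1 and 24.6 FPKM, highest in replicate 4, and no value approaches those of Slc12a5.

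Slc12a5 was 3.96-fold higher than Slc12a2 (log2 difference 1.99, SE 0.05, limma adjusted p = 9.37e-08), in 4 of 4 libraries. Of all genes tested 15.6% were higher than Slc12a2 in that fit. The ratio was 4.05, 4.27, 3.74 and 3.87 in replicates 1 to 4, with a mean of 3.98 ± 0.230 (SD, n = 4), so it stayed within 1.14-fold between libraries. In replicate 4, where Slc12a2 was highest, the 6 choroid plexus markers summed to 57.5 FPKM against 7.85 to 9.39 elsewhere. Nearly all of that sum was Ttr at 49.7 FPKM, and the part of choroid plexus in the Slc12a2 value was not tested.

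Set against Slc32a1, 4 of the 8 other members were higher, 2 were lower and 2 did not pass. Of all genes tested 5.64% were higher than Slc32a1 and 91.1% lower. The higher members were Slc6a11 at a log2 difference of 2.02, Abat at 1.13, Gad1 at 1.08 and Slc12a5 at 0.73 (SE 0.10, limma adjusted p = 0.000272). Slc12a2 at -1.26 and Slc6a5 at -6.70 were lower, with limma adjusted p of 1.23e-05 and 9.32e-05. With Slc6a5 as the reference, the latter difference had an SE of 1.27 and a limma adjusted p of 0.0158, and it did not pass without replicate 2, 3 or 4 (0.188, 0.150 and 0.171). Slc6a9 and Gad2 did not pass, at 0.00 and -0.03. On values multiplied by transcript length Slc12a2 no longer differed from Slc32a1 by the test, since Slc32a1 then stood only 0.038 log2 units above it.

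Over the 36 pairs of members, 32 differed by limma in the fit with the lower member as reference and 4 did not pass. Among all genes tested, 6.33% were higher than Slc6a9 and 3.34% higher than Slc12a5 in such fits, beside the shares given above for the other references. The lower member was chosen from these same levels, so a share in 1 direction does not match the count of 32. In both directions most genes differed from Slc32a1, with 5.64% higher and 91.1% lower. The 4 pairs that did not pass were Abat with Gad1, and each pair among Slc32a1, Slc6a9 and Gad2. For Slc32a1 over Slc6a9 the 95% interval of the log2 difference ran from -0.18 to 0.18, and for Slc6a9 over Gad2 from -0.20 to 0.25. Gad1 was 1.27-fold higher than its neighbour Slc12a5 (log2 difference 0.35, SE 0.10, limma adjusted p = 0.0113) in 4 of 4 libraries, though their ranges overlap. The difference of this pair did not pass without replicate 2 (0.28, limma adjusted p = 0.0506), and it turned to -0.39 on values multiplied by transcript length.

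The spread of each gene between libraries was set beside that of genes of like level. The SD of log2 levels was 0.26 for Gad1, 0.17 for Slc32a1 and 0.16 for Gad2, at percentiles 94.5, 85.7 and 82.6 of the 1000 genes nearest in level. Abat stood at percentile 67.7, Slc6a11 at 40.0, Slc12a5 at 29.8, Slc12a2 at 18.2 and Slc6a9 at 9.40. Slc6a5, with an SD of 2.22, stood at 99.9. The limma variance test called 0 of the 9 members and 0% of all entries, while 2 members, Slc6a5 and Gad1, and 5.85% of all entries were at an unadjusted p under 0.05. Their limma adjusted p were 0.346 and 0.736. In simulated data the same test found 0% of the genes whose level in 1 library was moved by 4 log2 units, and a count of 0 does not show that levels were alike.

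The other genes of the pathway were read from 6 lists of 69 genes, of which 64 were tested. Against Slc32a1, 7 passed as higher, 52 as lower and 5 did not pass, where 5.64% of all genes tested were higher and 91.1% lower. The median log2 difference was -2.40 against -3.49 over all genes tested. Among 11 enzymes of GABA and glutamate metabolism, 4 were higher and 6 lower, beside the same 5.64% and 91.1% of all genes. Glul, the astrocyte enzyme that makes glutamine, was at 538 ± 22.3 FPKM and 9.68-fold higher, and Got1, an aspartate aminotransferase, at 229 ± 12.8 FPKM and 4.12-fold higher. Glud1, glutamate dehydrogenase, and Got2, the mitochondrial aminotransferase, were 2.40-fold and 2.25-fold higher. Aldh5a1, which completes GABA breakdown after Abat, was at 25.6 ± 0.870 FPKM and 2.16-fold lower.

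Among 9 genes of glycine metabolism 1 was higher than Slc32a1, 5 were lower and 3 did not pass, beside 5.64% higher and 91.1% lower of all genes. Psat1, an aminotransferase of serine synthesis, was 1.30-fold higher at 72.2 ± 5.40 FPKM (limma adjusted p = 0.00918). Phgdh, the first enzyme of that route, was at 54.4 ± 1.78 FPKM and did not pass, nor did Dld and Gcsh, subunits of the glycine cleavage system, at 54.9 ± 2.10 and 51.5 ± 2.77 FPKM. The decarboxylase subunit of the same system, Gldc, was far lower at 1.79 ± 0.405 FPKM.

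Of 10 further transporters of GABA, glycine and their precursors, 9 were tested and all 9 were lower than Slc32a1, near the 91.1% of all genes. The most abundant were the glutamine transporters Slc38a1 at 37.3 ± 3.53 FPKM and Slc38a2 at 37.0 ± 5.83 FPKM, and Slc7a10, which carries small neutral amino acids including glycine, at 28.7 ± 1.41 FPKM. Slc6a12 and Slc6a13, GABA transporters of vessels and meninges, were at 1.19 ± 0.763 and 6.01 ± 2.02 FPKM. Both were highest in replicate 1, at 2.29 and 9.03 FPKM, where the 6 markers of endothelial, mural and meningeal cells also summed highest, at 163 FPKM against 110 to 141. Of the 6, Cldn5, Vtn, Dcn and Col1a1 were highest there, while the endothelial genes Flt1 and Pecam1 were lowest there, at 8.20 and 7.55 FPKM. The part of those cells in the 2 values was not tested.

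Of 12 further chloride cotransporters, channels and exchangers, 10 were tested and all 10 were lower than Slc32a1, again beside 91.1% of all genes. Clcn3, an intracellular chloride-proton exchanger, led at 33.5 ± 0.445 FPKM, followed by the bicarbonate transporter Slc4a10 at 21.9 ± 1.47 FPKM. Slc12a4, the gene of the potassium-chloride exporter KCC1, was at 6.06 ± 0.240 FPKM, below Slc12a5 in every library. The renal cotransporters Slc12a1 and Slc12a3 stayed at 0.101 FPKM or less in every library.

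Among 11 regulators of the cotransporters and enzymes of bicarbonate, 2 were higher than Slc32a1, 8 were lower and 1 did not pass. The shares over all genes were 5.64% higher and 91.1% lower. Ckb, brain creatine kinase, which binds KCC2, was at 1122 ± 70.2 FPKM and 20.2-fold higher, and Car2, a carbonic anhydrase rich in oligodendrocytes, at 230.3 ± 19.1 FPKM and 4.14-fold higher. Epb41l1, which encodes the cytoskeletal protein 4.1N that binds KCC2, did not pass at 64.1 ± 4.81 FPKM. The kinase genes Wnk1 at 29.5 ± 4.43 FPKM and Stk39 at 29.5 ± 2.21 FPKM, whose products phosphorylate the cotransporters, were 1.89-fold and 1.88-fold lower.

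**Figure D4:**
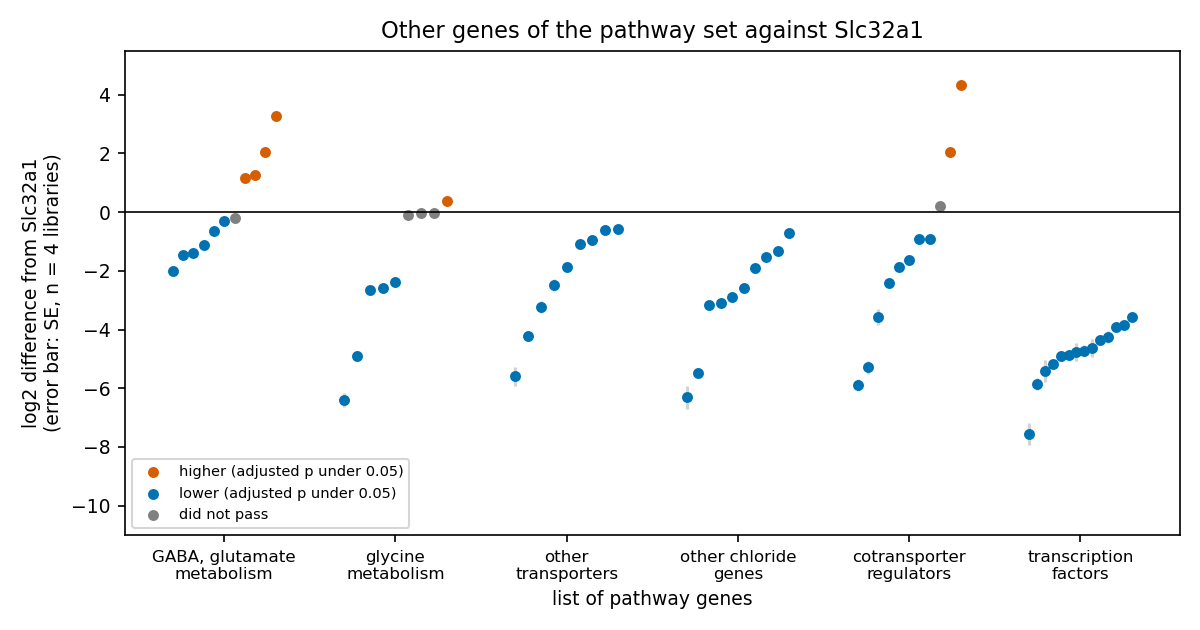
Log2 difference of each tested gene of the 6 pathway lists from Slc32a1, 1 point per gene with its SE over 4 libraries, ordered within each list. Orange points passed as higher (7), blue as lower (52) and grey did not pass (5), beside 5.64% higher and 91.1% lower of all genes tested. Every tested transporter, chloride gene and transcription factor of the lists lies below the line.

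Transcription factors of GABA and glycine neurons were low in level, as such genes usually are: 14 of 16 were tested and all 14 were lower than Slc32a1, where 91.1% of all genes were. The most abundant were Six3, a forebrain factor, at 4.69 ± 1.46 FPKM, and the LIM factors Lhx5 and Lhx1 at 3.84 ± 0.781 and 3.64 ± 0.541 FPKM. Of the 14, Six3, Gata2, Gata3 and Tal1 were lowest in replicate 1 and highest in replicate 2, as Gad1, Gad2 and Slc32a1 were, beside 9.88% of all entries. Gata2, Gata3 and Tal1 were named after their values were seen. Tal1, which with Gata2 and Gata3 directs GABA neurons of the midbrain and caudal diencephalon, was at 0.658, 3.999, 2.39 and 2.20 FPKM in replicates 1 to 4. Gata3 was at 1.22, 2.93, 1.77 and 1.69 FPKM and Gata2 at 2.11, 3.53, 2.64 and 2.38 FPKM in the same order. The 6 midbrain dopamine markers were also highest as a sum in replicate 2, though Nr4a2 among them was highest in replicate 1. The part of midbrain tissue in the Tal1, Gata2 and Gata3 values was not tested.

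The Dlx genes, which direct forebrain GABA neurons, took another order, and were also named after their values were seen. Dlx1 was at 2.58, 3.12, 1.83 and 4.36 FPKM in replicates 1 to 4, and Dlx2, Dlx5 and Dlx6 were likewise lowest in replicate 3 and highest in replicate 4. Lhx6, another forebrain factor, was also lowest in replicate 3, at 0.555 FPKM, and highest in replicate 4, at 3.16 FPKM. Of all entries tested, 9.36% were lowest in replicate 3 and highest in replicate 4. The 4 lateral hypothalamic markers also summed lowest in replicate 3, at 173 FPKM, and highest in replicate 4, at 760 FPKM. Of the 4, Pmch alone had that order, while Hcrt was highest in replicate 1, Cartpt lowest in replicate 1, and Lhx9 highest in replicate 3 and lowest in replicate 2. The part of that region in the Dlx values was not tested.

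**Figure D5:**
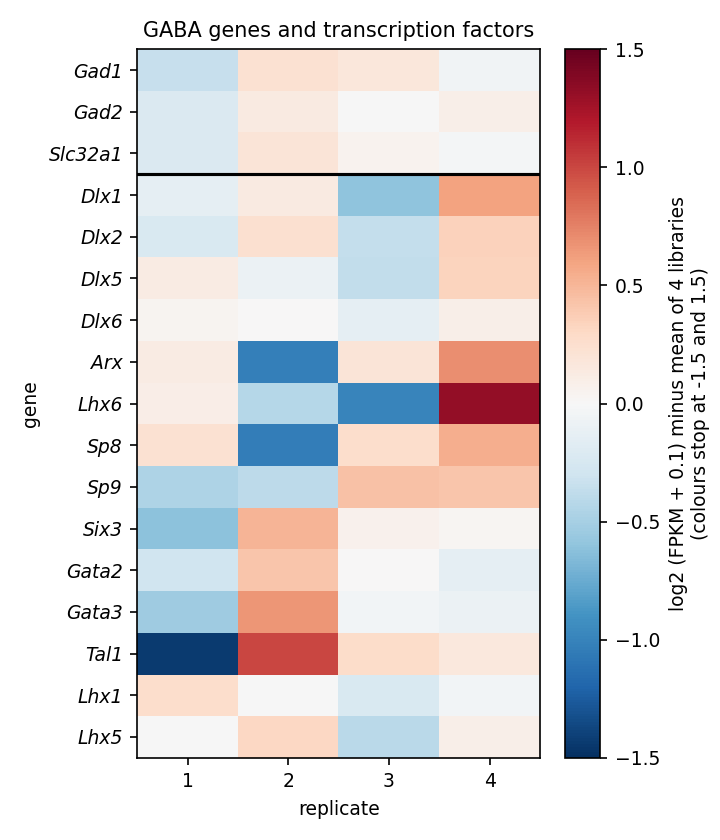
Log2 (FPKM + 0.1) minus the mean of the 4 libraries for Gad1, Gad2 and Slc32a1 (above the line) and the 14 tested transcription factors (below it), by replicate. Six3, Gata2, Gata3 and Tal1 are lowest in replicate 1 and highest in replicate 2 like the 3 GABA genes, while Dlx1, Dlx2, Dlx5 and Dlx6 are lowest in replicate 3 and highest in replicate 4.

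The nearest profiles to other members were close but belonged to genes of many kinds, since 4 libraries leave few ways to differ. For Gad1 they were Gm32687 at 0.03, a locus without an Ensembl identifier at 0.05 and Havcr2 at 0.06 log2 units, all with means under 1 FPKM. For Gad2 the nearest were Tbrg4, Rad51d and Polr3gl at 0.01 to 0.03, and for Slc32a1 Zfp628, Tdrd3 and Fam189a2 at 0.02 to 0.03. The genes nearest to Abat were Nek6, Znhit3 and Xpr1, and those nearest to Slc6a9 were Mark3, Dnajc19 and Slc2a1. Slc12a5 had BC017158, Fgfr1op and Polr2m as its nearest, and Slc12a2 had Naa38, St6galnac3 and Cc2d2a. Between members, the distance was 0.14 from Gad2 to Slc32a1, 0.17 from Gad1 to Slc32a1 and 0.27 from Gad1 to Gad2. So none of the 3 was nearest to another among all entries, and Gad2 was nearer to Abat, at 0.19, than to Gad1.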

How the data were processed

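RNA of 4 brain samples was extracted with TRIzol and made into mRNA libraries with a dual-mode kit, per the labels' protocols. The submitters' processing notes give GRCm38. The aligner, quantification program, annotation or use of strand is not given in the sources used here. Values as deposited by the authors were read as FPKM from their behaviour: they are not whole, and totals differ between libraries. Neither trait shows that values were scaled to transcript length, so the order of the genes depends on this reading. Depth is unknown: low values (under 0.1 FPKM) multiplied by transcript length lay within 0.05 of a whole multiple of the best common step for 30.1% and 30.6% of values in replicates 1 and 2 and for 10.2% and 13.1% in replicates 3 and 4, where chance gives 10%. This is far from nearly all values, and no reads were recovered. Precision is limited to the spread over 4 libraries.

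The members and lists were chosen with earlier results of these data known. Each file was assigned to its sample by the series' file list; the file of replicate 3 has a header ending in C. Symbols and positions came from GENCODE M21, which matched 22022 of 22036 Ensembl identifiers, and 3008 further loci have none. Promoter windows came from RefSeq and matched the 3 genes shown.

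Every gene with a mean of 0.1 FPKM or more was compared with a reference gene by limma 3.58.1 (R 4.3.3), as an intercept fitted to within-library differences of log2(FPKM + 0.1); on this scale low genes differ less than on FPKM itself. The prior variance followed a trend on the mean, with at most 3.78 prior degrees of freedom, the number estimated from each gene's own level. Tests were two-sided, p-values were adjusted by Benjamini-Hochberg across 17629 genes, and 0.05 was the threshold. For spread, limma's prior was trended and robust. Tested on simulated data of 17630 genes, the fits found 72.5% of genes placed 1 log2 unit from Slc32a1, 69.5% from Gad2 and 86% from Slc12a2, but 0% of genes placed 4 units from Slc6a5 with its observed spread. Tables and figures used pandas 2.3.3, numpy 2.4.6 and matplotlib 3.10.9 under Python 3.11.15.

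Named genes were all members, the 3 most abundant genes of each list, pathway genes above Slc32a1, the 3 nearest profiles of each member and genes overlapping a member; the remaining genes were chosen with their values in view. Some genes that this rule names are not reported here. Alternatives were another pseudocount, filter, prior, length treatment or scaling, and leaving out each library.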

Additional observations from a re-analysis of the deposited data

Results flagged for a closer look

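Dixon's test for 1 library apart from the other 3 was applied to 79 gene levels, ratios and marker sums, and 14 stood apart, where chance alone gives about 5%. The values are not independent, since genes were partly named for their profile and sums share genes with the list.

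Slc6a5 was the member that stood apart, at 4.83 FPKM in replicate 1 against 0.0745 to 0.361 in the others. In the same library Uts2b was at 1.24 FPKM against 0 to 0.170, Hoxd8 at 1.88, Hoxb5 at 1.90 and Lbx1 at 0.188 FPKM, the last 3 listed at 0 elsewhere. The mean of Lbx1 was under 0.1 FPKM, so it was not among the entries tested by limma. The 8 Hox markers of spinal cord and caudal hindbrain summed there to 19.6 FPKM and were at 0 in the others. Slc6a13, a GABA transporter gene of meninges and vessels, was at 9.03 FPKM in replicate 1 against 4.93 to 5.13.

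In replicate 2 the bicarbonate transporter gene Slc4a10 was low, at 19.7 FPKM against 22.5 to 22.9. The midbrain dopamine markers summed there to 696 FPKM and the medial hypothalamic markers to 173 FPKM. In replicate 3 the carbonic anhydrase gene Car2 was high, at 258.6 FPKM against 217 to 224, and the thalamic markers summed to 264 FPKM. Oligodendrocyte markers also summed highest in replicate 3, at 8196 FPKM. In replicate 4 Ttr was at 49.7 FPKM and the choroid plexus markers, which include it, summed to 57.5 FPKM. The part of other tissue or cells in the gene values was not tested.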

How the results depend on the processing

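Another pseudocount, filter or prior, including a prior without a trend (chosen after seeing the data), changed no call among the members. Values multiplied by transcript length did: against Slc32a1, 6 members were higher in place of 4, 1 was lower in place of 2, and 14 pathway genes were higher in place of 7; 26 pairs differed in place of 32. There the 8 pairs with Slc6a5 did not pass, Slc6a9 over Slc6a5 being at 6.20 (limma adjusted p = 0.0596), and 4 differences changed sign, Gad1 over Slc12a5 at -0.39, Slc32a1 over Slc6a9 at -0.31, Slc32a1 over Gad2 at -1.01 and Slc6a9 over Gad2 at -0.70, all passing. Abat over Gad1 then passed at 0.41 (limma adjusted p = 0.0266), while Abat over Slc12a5 (adjusted p = 0.702) and Slc32a1 over Slc12a2 did not. Leaving out each library in turn gave 1.05 to 1.16 for Gad1 over Gad2, 1.95 to 2.02 for Slc12a5 over Slc12a2 and 6.14 to 7.76 for Slc6a9 over Slc6a5, and 23 to 32 pairs that differed. The pairs lost without replicate 2, 3 or 4 were the 8 with Slc6a5 and, without replicate 2, Gad1 over Slc12a5. Among pairs that had not passed, the range was -0.043 to 0.141 for Abat over Gad1, -0.050 to 0.085 for Slc6a9 over Gad2 (both negative without replicate 1) and -0.075 to 0.079 for Slc32a1 over Slc6a9 (negative without replicate 2). The cause of these changes was not tested. Scaling to a common total without mitochondrial genes moved all 9 levels by more than their SD, a change of scale. No paired analysis was possible because the series has 1 group.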
